A study of Mus musculus with 16 samples.

Results

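The 46 genes described here copy DNA and make its building blocks. They were listed by role: 12 genes that license or fire replication origins, 14 that act at the fork, 6 polymerase and primase subunits, 5 enzymes of nucleotide supply and 9 genes of chromatin assembly, control or repair. A listed gene was kept where it reached 1 CPM (counts scaled to a fixed library total) in at least 4 of the 16 libraries. All 46 did, so they are 46 of the 13234 genes that passed this filter.

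The cells were mIMCD3, a mouse epithelial line made from the inner medulla's collecting ducts in animals with the SV40 T antigen, and the labels give their genotype as wild type. They were grown for 10 days on permeable filters and then given 2 µg/mL doxycycline (DOX), a tetracycline antibiotic, or its vehicle DMSO for 3 or 6 days. This gave 4 groups of 4 replicates: DMSO at 3 days, DOX at 3 days, DMSO at 6 days and DOX at 6 days. The labels do not say whether replicates were separate cultures, so p-values measure the spread between these libraries. In cells that carry T antigen, the retinoblastoma proteins that restrain E2F factors are bound by it, which limits the line as a model of resting kidney cells.

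Total counts were between 16933343 and 23960860 per library, and 3 counts, the smallest amount taken as detectable, were worth 0.125 to 0.177 CPM, which covers counting error only. All 8 epithelial markers checked were expressed in DMSO, from 17.7 TPM (a level per transcript length, likewise scaled) for *Ocln* to 889 TPM for *Krt18*. Of 8 collecting duct markers only *Gata3* passed the filter, at 2.67 TPM, and it was called lower in DOX (log2 fold change -0.74 at 3 days and -0.97 at 6 days). *Aqp2*, the vasopressin-regulated water channel, had 0.184 TPM. All 6 fibroblast markers and all 5 endothelial markers had low means over the 8 DMSO libraries, the highest being 0.319 TPM for *Col1a1* and 0.5199 TPM for *Pecam1*, and *Lum* was at 0 TPM in every DMSO library of 6 days. Of 6 immune markers *Csf1r* had 7.58 TPM and the others 0.218 TPM or less, and *Csf1r* was called lower in DOX (log2 fold change -0.82 at 3 days and -0.63 at 6 days). The summed TPM of the epithelial list was 2242 to 2495 in DMSO and 1654 to 1971 in DOX at 3 days, and 2449 to 2725 and 1705 to 1910 at 6 days. Of the 8, *Krt8* and *Cdh1* were called lower at 3 days, and *Krt8*, *Krt18* and *Cldn4* at 6 days. The part of this shift in the results below was not tested. In bulk RNA, fewer cells in S phase and less RNA of these genes per cell cannot be told apart.

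Before a cell copies its DNA, the origin recognition complex with CDC6 and CDT1 loads the MCM2-7 helicase onto origins, which is called licensing. In S phase CDC45 and GINS turn the helicase on, polymerase alpha with primase starts each strand, polymerases delta and epsilon extend it on the PCNA clamp, and ribonucleotide reductase and thymidylate synthase supply the deoxynucleotides. Many of these genes are transcribed in late G1 under E2F factors, and kidney tubule cells copy DNA rarely unless they are injured or in culture.

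Promoter sequences are shown for the 4 genes with the smallest adjusted p at 6 days, *Rrm2*, *Cdc6*, *E2f2* and *Uhrf1*, and for *Mcm6* and *Cdca7*, which were chosen after their values were seen because their promoters hold E2F letters although *Mcm6* was not called and *Cdca7* rose. They are RefSeq promoters on GRCm38.p6, each from 250 bases before to 50 bases after the start RefSeq gives, on the gene's own strand. That start was not always the GENCODE start of the gene positions printed with the values: along the strand it lay 13 bases downstream for *Rrm2*, 60 for *Cdca7*, 350 for *Cdc6* and 992 for the *Uhrf1* window shown, and 41 bases upstream for *Mcm6* and 120 for *E2f2*. The *Cdc6* and *Uhrf1* windows shown thus lie wholly inside the GENCODE gene, and that of *E2f2* ends before it. Capitals mark the E2F letters searched for: TTTCCCGC, TTTCGCGC, TTTGCCGC and TTTGGCGC on either strand.
Rrm2, chr12:24708004-24708303, plus strand: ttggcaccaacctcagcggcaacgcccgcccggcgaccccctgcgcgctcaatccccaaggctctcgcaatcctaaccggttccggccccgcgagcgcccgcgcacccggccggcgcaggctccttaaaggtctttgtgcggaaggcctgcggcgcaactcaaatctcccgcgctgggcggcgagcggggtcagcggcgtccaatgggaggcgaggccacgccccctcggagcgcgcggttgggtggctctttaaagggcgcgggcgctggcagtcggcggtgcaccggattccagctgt
Cdc6, chr11:98907901-98908200, plus strand: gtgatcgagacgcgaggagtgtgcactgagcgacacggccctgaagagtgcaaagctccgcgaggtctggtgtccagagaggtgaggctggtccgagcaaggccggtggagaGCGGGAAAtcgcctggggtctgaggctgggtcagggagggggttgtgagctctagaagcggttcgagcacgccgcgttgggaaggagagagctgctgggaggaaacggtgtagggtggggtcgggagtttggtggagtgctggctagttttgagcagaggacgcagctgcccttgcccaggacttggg
E2f2, chr4:136172024-136172323, plus strand: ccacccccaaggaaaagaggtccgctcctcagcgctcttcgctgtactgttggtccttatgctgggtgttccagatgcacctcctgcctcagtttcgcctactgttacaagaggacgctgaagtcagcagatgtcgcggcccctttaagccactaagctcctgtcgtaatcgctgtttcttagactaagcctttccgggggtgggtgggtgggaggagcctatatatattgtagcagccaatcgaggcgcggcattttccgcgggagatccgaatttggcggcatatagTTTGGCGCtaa
Uhrf1, chr17:56304063-56304362, plus strand: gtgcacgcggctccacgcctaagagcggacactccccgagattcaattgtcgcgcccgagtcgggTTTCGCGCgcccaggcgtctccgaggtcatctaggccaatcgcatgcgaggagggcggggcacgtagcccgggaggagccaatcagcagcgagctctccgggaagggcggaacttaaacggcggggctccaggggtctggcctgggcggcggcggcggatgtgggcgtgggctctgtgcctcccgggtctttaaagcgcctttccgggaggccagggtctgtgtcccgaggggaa
Mcm6, chr1:128359656-128359955, minus strand: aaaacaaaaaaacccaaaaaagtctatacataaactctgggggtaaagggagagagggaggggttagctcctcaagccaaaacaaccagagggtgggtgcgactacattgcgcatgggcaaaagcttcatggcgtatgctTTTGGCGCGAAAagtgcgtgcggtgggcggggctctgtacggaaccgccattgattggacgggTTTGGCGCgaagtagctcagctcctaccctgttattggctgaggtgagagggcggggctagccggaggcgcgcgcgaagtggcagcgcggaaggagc
Cdca7, chr2:72475969-72476268, plus strand: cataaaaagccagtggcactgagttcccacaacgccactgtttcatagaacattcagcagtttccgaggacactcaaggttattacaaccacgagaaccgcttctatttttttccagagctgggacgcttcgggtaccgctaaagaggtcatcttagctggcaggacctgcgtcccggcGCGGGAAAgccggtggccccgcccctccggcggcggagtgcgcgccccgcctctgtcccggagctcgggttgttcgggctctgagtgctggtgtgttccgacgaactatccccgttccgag
The *Rrm2* window holds none of these letters, *Mcm6* holds 3 matches of which the first 2 overlap, and the other 4 hold 1 each. *E2f2* and *Uhrf1* each have another RefSeq start whose window holds none, and for *Uhrf1* that other window is the one that covers the GENCODE start.

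After 3 days of DOX 5 of the 46 genes were called, and after 6 days 13. A gene is referred to as called where edgeR's glmTreat gave an adjusted p under 0.05 for a change beyond 20%, with adjustment over all 13234 genes. At 3 days 4 genes were lower (8.7% of the 46, against 7.22% of all tested genes) and 1 was higher (against 5.3%), so the share called lower was close to the background (12.5% of all tested genes were called in either direction, 21.6% at 6 days). At 6 days 12 were lower (26.1%, against 11.6% of all tested genes) and 1 was higher (against 10%). The median log2 fold change of the 46 was -0.022 at 3 days and -0.25 at 6 days, beside 0.0031 and -0.00064 over all tested genes. At 6 days 42 of the 46 had a fold change below 0, as had 50.1% of all tested genes. The 4 libraries of DOX were all below the 4 of DMSO for 14 of the 46 at 3 days (19.8% of all tested genes) and for 31 at 6 days (20.9%). They were all above DMSO for 7 at 3 days (18.8%) and for 2, *Mcm2* and *Cdca7*, at 6 days (22.1%).

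Scaling bears on these directions. On log2(TPM + 1), which is relative to all transcripts of a library, the median of all tested genes at 3 days was -0.149, and the share of calls over all genes that were higher was 12.1% in place of 42.3% at 3 days and 28.8% in place of 46.4% at 6 days. With each library centred on its median it was 53% at 3 days. Of the 46 genes 4 were called lower at 3 days and 9 at 6 days on log2(TPM + 1) (4.65% and 7.03% of all tested genes), 0 were higher, and 2 and 7 were lower with centring (2.04% and 5.83%).

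**Figure D1:**
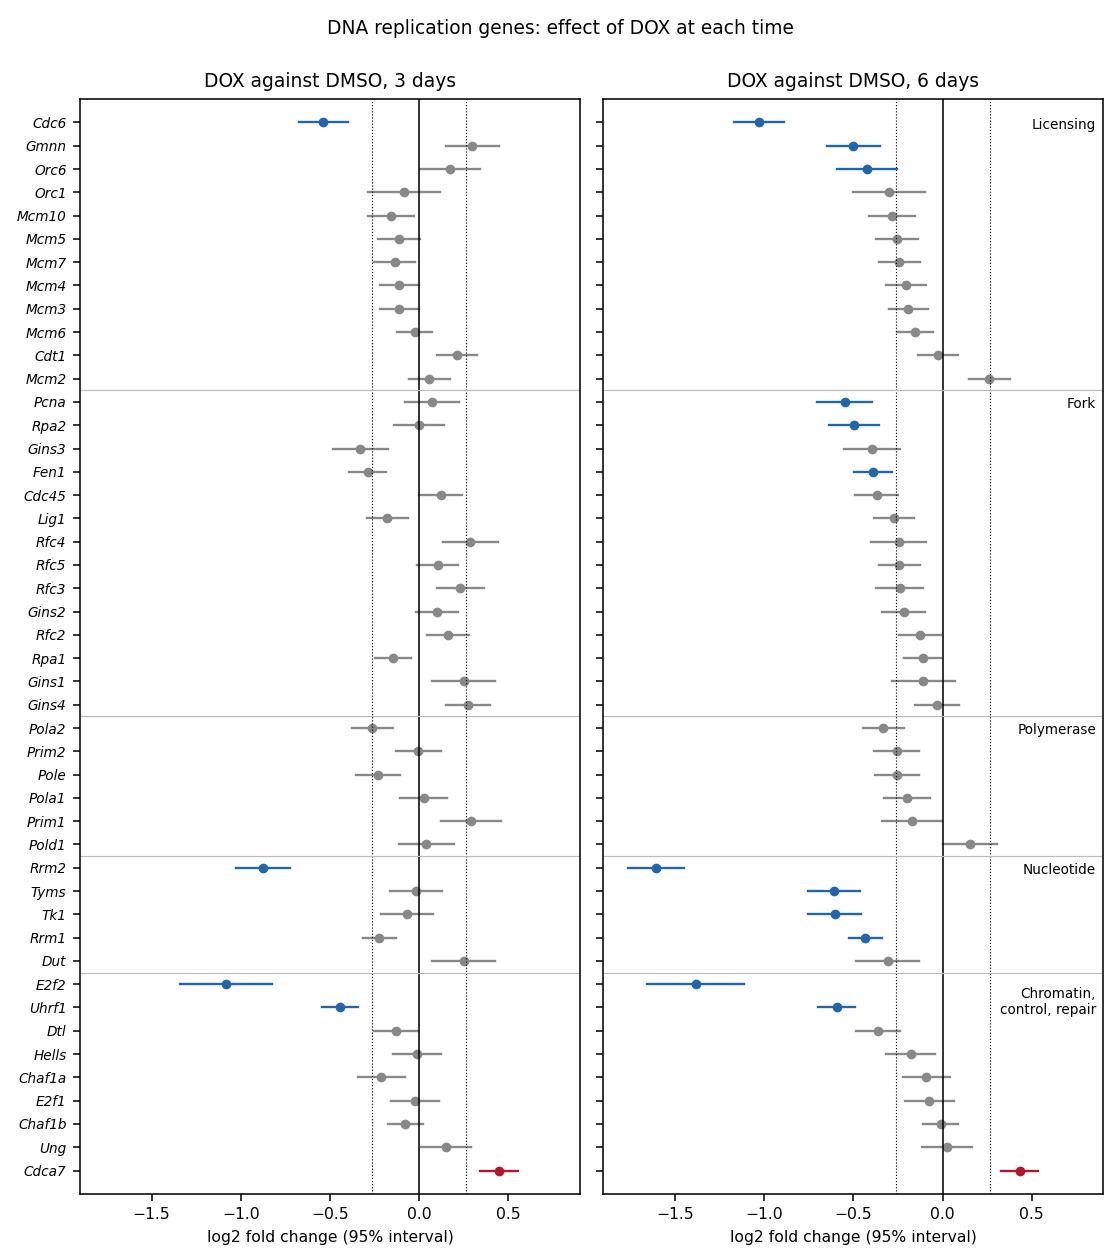
Log2 fold change of DOX against DMSO (x axis) for each of the 46 genes (rows, grouped by role) at 3 days (left) and 6 days (right), with 95% intervals, dotted lines at a change of 20%, blue for genes called lower, red for genes called higher and grey for the rest. The 4 genes called lower at 3 days, *Cdc6*, *Rrm2*, *E2f2* and *Uhrf1*, are also lower at 6 days, where 8 more join them, and *Cdca7* is the 1 gene called higher at either time.

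At 6 days nucleotide supply had the largest share of genes called among the 5 roles, 80%, while at 3 days it had 20% beside 33.3% for chromatin, control and repair. *Rrm2* was called lower at both times, *Rrm1*, *Tyms* and *Tk1* at 6 days, and *Dut* at neither, so 1 of 5 was called at 3 days and 4 of 5 at 6 days. Over all tested genes 12.5% were called at 3 days (7.22% lower) and 21.6% at 6 days (11.6% lower). *Rrm2* (ENSMUSG00000020649, chr12:24708241-24714146, plus strand) encodes the small subunit of ribonucleotide reductase, which makes deoxynucleotides and is made in S phase. At 3 days its CPM was 150, 138, 143 and 146 in DMSO and 70.1, 80.2, 73.3 and 90.8 in DOX. Libraries of 6 days had 129.7, 141, 140.3 and 156 in DMSO and 49, 49.4, 45.5 and 42.2 in DOX. The groups did not overlap at either time, and the DOX libraries of 6 days were all below those of 3 days. The RNA fell by 45.5% at 3 days (log2 fold change -0.88, SE 0.0737, adjusted p = 3.97e-07) and by 67.2% at 6 days (log2 fold change -1.61, SE 0.0757, adjusted p = 5.1e-12). Part of it resembles the processed pseudogene Gm48455 (95.465% identical over 419 bases), so some reads could be shared.

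*Rrm1* (ENSMUSG00000030978, chr7:102441695-102469771, plus strand) encodes the large, catalytic subunit of the same enzyme. Its CPM was 173, 171, 181 and 172 in DMSO and 151, 148, 148 and 149.7 in DOX at 3 days, where it was not called (log2 fold change -0.22). At 6 days the values were 183, 193, 187 and 191 in DMSO and 135, 142, 144 and 136 in DOX. DOX was below DMSO in every library at both times, and the fall at 6 days came to 26% (log2 fold change -0.43, SE 0.0446, adjusted p = 0.000825). It was not called on the TPM scale. The *Rrm2* to *Rrm1* ratio of TPM was 1.3 to 1.48 in DMSO and 0.686 to 0.93 in DOX at 3 days, and 1.1 to 1.3 in DMSO and 0.525 to 0.581 in DOX at 6 days. The small subunit's RNA thus exceeded the large subunit's, per length, in all 8 DMSO libraries and in none of the 8 DOX libraries.

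*Tyms* (ENSMUSG00000025747, chr5:30058202-30073617, minus strand) encodes thymidylate synthase, which makes thymidylate anew. Its CPM at 3 days was 78.2, 73.3, 80.5 and 71.3 in DMSO and 64.5, 76.7, 76.5 and 81.1 in DOX, which overlapped (log2 fold change -0.021, 95% interval -0.17 to 0.12). After 6 days its CPM was 82.6, 85.1, 75.6 and 78.5 in DMSO and 58, 53.3, 51.7 and 48.2 in DOX, without overlap. It fell by 34.4% (log2 fold change -0.61, SE 0.0707, adjusted p = 8.82e-05). Stretches of its annotated transcript match repeats in 6 other genes.

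*Tk1* (ENSMUSG00000025574, chr11:117815526-117826092, minus strand), the thymidine kinase that salvages thymidine in S phase, followed the same course. At 3 days its CPM was 63.9, 67.2, 69.4 and 65.5 in DMSO and 55.3, 64.4, 65.1 and 68.7 in DOX, overlapping. At 6 days it was 80.1, 72.6, 68.6 and 65 in DMSO and 48.7, 43.6, 49.8 and 46.1 in DOX, apart in every library. The fall was 34.2% (log2 fold change -0.60, SE 0.0712, adjusted p = 0.000104). It overlaps Afmid on the other strand. The library kit was directional (strand-keeping), but whether counting used strand is not given in the sources used here. *Dut*, whose product removes dUTP and so keeps uracil out of DNA, had log2 fold changes of 0.25 at 3 days and -0.31 at 6 days (95% interval -0.48 to -0.13), and its DOX libraries of 6 days (56.3 to 67.5 CPM) were all below DMSO (69.9 to 77.9 CPM).

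**Figure D2:**
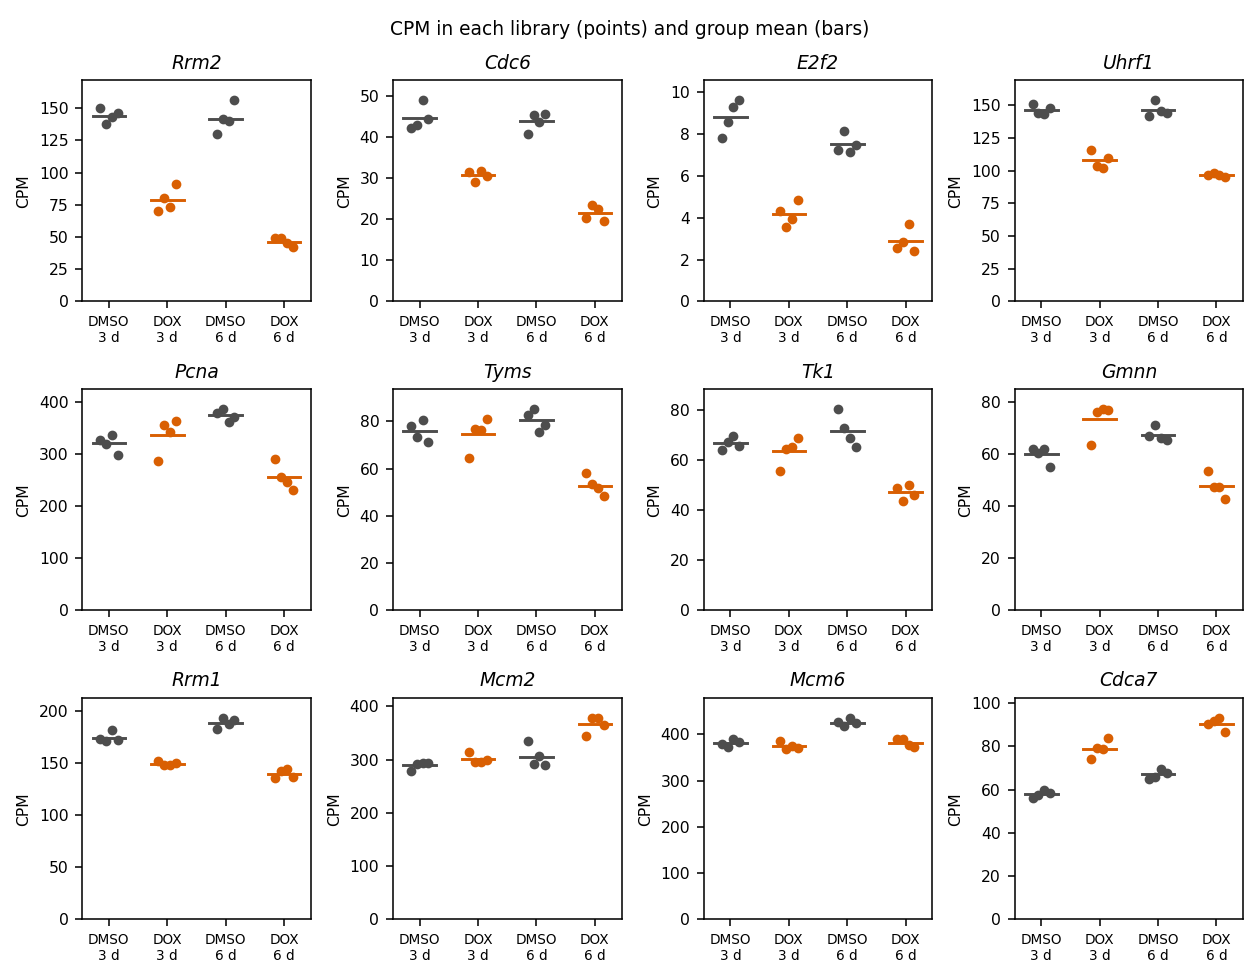
CPM (y axis, from 0) of 12 genes in each library (points) with the group mean (bars) for DMSO (grey) and DOX (orange) at 3 and 6 days. *Rrm2*, *Cdc6*, *E2f2*, *Uhrf1* and *Rrm1* are below DMSO in every library at both times, *Rrm1* without being called at 3 days. *Pcna*, *Tyms* and *Tk1* overlap DMSO at 3 days and fall at 6 days, and *Cdca7* is higher at both.

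Among the licensing genes 3 of 12 were called: *Cdc6* at both times, and *Gmnn* and *Orc6* at 6 days, all lower. That is 8.33% at 3 days and 25% at 6 days. Over all tested genes 7.22% and 11.6% were called lower, and 12.5% and 21.6% in either direction. *Cdc6* (ENSMUSG00000017499, chr11:98907801-98923940, plus strand) encodes the ATPase that recruits the helicase to origins. Its CPM at 3 days was 42.2, 42.9, 48.9 and 44.5 in DMSO and 31.6, 29.2, 31.7 and 30.5 in DOX. At 6 days the values were 40.8, 45.5, 43.7 and 45.7 and 20.4, 23.5, 22.4 and 19.6. No library of DOX reached a library of DMSO, and again the DOX libraries of 6 days were below those of 3 days. *Cdc6* fell by 31.1% at 3 days (log2 fold change -0.54, SE 0.0666, adjusted p = 0.000929) and by 51% at 6 days (log2 fold change -1.03, SE 0.068, adjusted p = 2.73e-09). It shares 1528 bases at 95.223% identity with the pseudogene Gm9430.

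*Gmnn* (ENSMUSG00000006715, chr13:24751845-24761923, minus strand) encodes geminin, the inhibitor of CDT1 that prevents a second licensing in the same cycle. Its CPM at 3 days was 62.1, 60.6, 61.9 and 54.9 in DMSO and 63.6, 76.2, 77.2 and 77 in DOX, so that DOX lay above DMSO in every library without being called (log2 fold change 0.30, 95% interval 0.15 to 0.44). At 6 days it was 67, 71.2, 66.1 and 65.3 in DMSO and 53.4, 47.2, 47.4 and 42.8 in DOX. The order of the groups had turned, and the fall was 29.3% (log2 fold change -0.50, SE 0.0718, adjusted p = 0.00262). *Cdt1*, the loading factor that geminin binds, had 119.5 to 122 CPM in DOX against 102 to 108 in DMSO at 3 days (log2 fold change 0.21, not called) and overlapped at 6 days (-0.025). The *Cdt1* to *Gmnn* ratio of TPM was 0.580 to 0.747 in the 8 DMSO libraries, 0.601 to 0.731 in DOX at 3 days and 0.765 to 0.991 in DOX at 6 days.

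*Orc6* (ENSMUSG00000031697, chr8:85299632-85308278, plus strand), a subunit of the origin recognition complex, had 80.4, 68.7, 72.1 and 65.4 CPM in DMSO and 69.4, 79.2, 86.4 and 88.1 in DOX at 3 days, with overlap. At 6 days it had 75.5, 81.5, 77.2 and 80.6 CPM in DMSO and 65.6, 60.9, 57.6 and 50.8 in DOX. The fall of 25.4% was just past the limit (log2 fold change -0.42, SE 0.0811, adjusted p = 0.0393) and was called under 7 of 13 other settings, the removal of the length and GC trend not among them (adjusted p = 0.192). Leaving out replicate 2, 3 or 4 of DMSO or replicate 3 or 4 of DOX at 6 days also ended the call. Its gene overlaps Vps35 on the other strand. *Orc1*, the complex's largest subunit, was near 10 CPM in DMSO (9.86 to 10.9 at 3 days) and had log2 fold changes of -0.084 and -0.30 with SEs of 0.0977 and 0.097, and *Mcm10*, which helps to start the helicase, -0.16 and -0.28.

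None of the 6 genes of the MCM2-7 helicase ring, which unwinds DNA, was called at either time. At 3 days their log2 fold changes ran from -0.14 for *Mcm7* to 0.056 for *Mcm2*, and all 6 of the 95% intervals lay within a change of 20% (0.263 on the log2 scale). At 6 days *Mcm3* to *Mcm7* lay between -0.25 and -0.15, and only 1 of the 6 intervals, that of *Mcm6* (-0.25 to -0.056), stayed within 20%. *Mcm2* went the other way, with 335, 291, 306 and 289 CPM in DMSO and 344, 378, 378 and 364 in DOX at 6 days (log2 fold change 0.26, 95% interval 0.15 to 0.38, adjusted p = 0.605). *Mcm6*, by contrast, had 426, 417, 435 and 424 CPM in DMSO and 389, 389.7, 377 and 372 in DOX at that time. The DOX libraries were all above DMSO for *Mcm2* and all below it for the other 5, and none passed the test. On log2(TPM + 1) *Mcm2* had -0.13 at 3 days. Without the 20% threshold, 35 of the 46 genes passed at 6 days, 33 lower and 2 higher, as did 50.6% of all tested genes, 25% lower and 25.7% higher. *Mcm7* resembles the pseudogene Gm5487 (97.682% over 2157 bases) and overlaps Cops6 and Ap4m1.

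At the replication fork 3 of 14 genes were called, all at 6 days and 0 at 3 days: *Pcna*, *Rpa2* and *Fen1*, lower in DOX. That is 21.4% at 6 days, beside 11.6% of all tested genes called lower. In either direction 21.6% of all tested genes were called, which is close to the same 21.4%. *Pcna* (ENSMUSG00000027342, chr2:132249162-132253314, minus strand) encodes the sliding clamp that holds polymerases on DNA. At 3 days its CPM was 326, 319.8, 336 and 299 in DMSO and 287, 356, 342 and 362 in DOX, with DOX replicate 1 the lowest of all 8. After 6 days it reached 378, 386, 361 and 372 in DMSO and 289.9, 256, 246 and 231 in DOX, apart in every library. *Pcna* fell by 31.7% (log2 fold change -0.55, SE 0.0733, adjusted p = 0.000719), while at 3 days its log2 fold change was 0.074 (95% interval -0.078 to 0.23), with the opposite sign, -0.075, once the trend with transcript length and GC content was removed. The pseudogene Pcna-ps2 is 99.232% identical over 781 bases.

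*Rpa2* (ENSMUSG00000028884, chr4:132768332-132778752, plus strand) encodes a subunit of the protein that coats single-stranded DNA. Its CPM was 33.6, 37.3, 36.1 and 36.3 in DMSO and 32.9, 34.6, 36.3 and 39.7 in DOX at 3 days, interleaved. The 6-day libraries had 43, 41, 42.6 and 37.9 in DMSO and 30.3, 28.9, 26.9 and 30.7 in DOX, and the fall was 29% (log2 fold change -0.49, SE 0.0667, adjusted p = 0.00183). *Rpa1*, the largest subunit of the same complex, was not called (log2 fold change -0.15 after 3 and -0.11 after 6 days). *Rpa2* was not called on the TPM scale.

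*Fen1* (ENSMUSG00000024742, chr19:10199132-10204169, minus strand) encodes the nuclease that trims the flaps of Okazaki fragments. Its CPM was 83.8, 90.9, 94 and 93.7 in DMSO and 75, 73.8, 74.4 and 73.5 in DOX at 3 days. At 6 days it was 94.3, 91.2, 94 and 92.7 and 67.5, 74.5, 73.7 and 68.3. DOX was below DMSO throughout, and the gene passed at 6 days alone (log2 fold change -0.39, SE 0.0507, adjusted p = 0.0142) against -0.29 and adjusted p = 0.431 at 3 days, with an interval of -0.25 to 0.049 for the difference between the times. DESeq2 and the TPM scale did not call it. The antisense gene Gm10143 covers 1911 of its bases, and reads from the 2 strands may be mixed. *Lig1*, the ligase that seals these fragments, had -0.18 and -0.27.

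The other fork genes were not called. *Cdc45*, which joins the helicase when an origin fires, went from 0.12 at 3 days to -0.37 at 6 days, where it just missed the limit (adjusted p = 0.0518), as did *Gins3* (-0.40, adjusted p = 0.0556). With the length and GC trend removed both were called at 6 days. The GINS complex that works with CDC45 has 4 subunits, and they did not move alike at 3 days: *Gins3* had -0.33, with DOX below DMSO in every library, and *Gins4* 0.27, with DOX above. *Gins1* had 0.25 and *Gins2* 0.099 at 3 days, and at 6 days *Gins1*, *Gins2* and *Gins4* had -0.11, -0.22 and -0.033. The clamp loader genes *Rfc2*, *Rfc3*, *Rfc4* and *Rfc5* lay above 0 at 3 days, from 0.10 for *Rfc5* to 0.29 for *Rfc4*, and below 0 at 6 days, from -0.25 for *Rfc4* to -0.13 for *Rfc2*. On log2(TPM + 1) *Cdc45*, *Gins1*, *Gins2*, *Pcna*, *Rfc2*, *Rfc5* and *Rpa2* lay below 0 at 3 days, from -0.16 for *Rpa2* to -0.022 for *Rfc2*. *Gins2*, *Rfc2* and *Rfc5* overlap transcripts of the neighbouring genes Gse1, Lat2 and Wsb2.

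None of the 6 polymerase and primase genes was called at either time. *Pola2*, the accessory subunit of polymerase alpha, came nearest, at -0.33 at 6 days (SE 0.0552, adjusted p = 0.138), with 63.8 to 66.6 CPM in DOX and 78.1 to 87.4 in DMSO, and it was called with the length and GC trend removed. *Pola1*, the catalytic subunit, had -0.20, and the primase genes *Prim1* and *Prim2* -0.17 and -0.26. *Pole*, the catalytic subunit of the leading-strand polymerase, had -0.25 at 6 days, and *Pold1*, that of the lagging-strand polymerase, 0.15, the 1 value of the 6 above 0. At 3 days the 6 ran from -0.26 for *Pola2* to 0.29 for *Prim1*, and *Pola1* and *Pold1*, just above 0, were below it on log2(TPM + 1) (-0.15 and -0.13).

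Of the 9 genes of chromatin, control and repair, *E2f2* and *Uhrf1* were lower and *Cdca7* was higher, each called at both times. That is 33.3% at each time, beside 12.5% of all tested genes at 3 days and 21.6% at 6 days. *E2f2* (ENSMUSG00000018983, chr4:136172394-136196057, plus strand) encodes an activating E2F factor and was the least abundant of the 46 (2.81 TPM in DMSO). At 3 days its CPM was 7.78, 8.56, 9.27 and 9.6 in DMSO and 4.31, 3.54, 3.96 and 4.86 in DOX. After 6 days the CPM was 7.22, 8.14, 7.15 and 7.49 and 2.56, 2.83, 3.67 and 2.4. Every DOX library was below every DMSO library. The fall was 52.8% at 3 days (log2 fold change -1.08, SE 0.124, adjusted p = 1.29e-05) and 61.7% at 6 days (log2 fold change -1.38, SE 0.13, adjusted p = 1.63e-07). *E2f1*, a close relative of the same function, had -0.023 (95% interval -0.16 to 0.11) and -0.074 (-0.21 to 0.063). The *E2f2* to *E2f1* ratio of TPM was 0.116 to 0.184 in the DMSO libraries and 0.0467 to 0.0944 in the DOX libraries.

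*Uhrf1* (ENSMUSG00000001228, chr17:56303321-56323486, plus strand) encodes the factor that brings the maintenance DNA methyltransferase to freshly copied DNA. Its CPM was 151, 144, 144 and 148 in DMSO and 116, 104, 102 and 110 in DOX at 3 days. The 6-day libraries had 142, 154, 146 and 144 and 97, 98.5, 97 and 95.6. The groups were apart at both times, with a fall of 26.5% at 3 days (log2 fold change -0.44, SE 0.0492, adjusted p = 0.00228) and 33.8% at 6 days (log2 fold change -0.59, SE 0.0492, adjusted p = 1.96e-06). With the length and GC trend removed the 3-day change was -0.35 and no longer called (adjusted p = 0.0652). The pseudogene Gm5648 matches 1590 bases at 98.302%.

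*Cdca7* (ENSMUSG00000055612, chr2:72476159-72486893, plus strand) encodes a zinc-finger protein that works with the remodeller HELLS in keeping DNA methylation. It had 56, 57.3, 59.9 and 58.7 CPM in DMSO and 74.2, 79.3, 78.6 and 83.8 in DOX at 3 days. The values at 6 days were 64.9, 66.1, 69.4 and 67.9 and 90.6, 91.8, 93 and 86.5. DOX was above DMSO in every library, and the RNA rose by 36.2% (log2 fold change 0.45, SE 0.0509, adjusted p = 0.0028) and 35% (log2 fold change 0.43, SE 0.0503, adjusted p = 0.0023). On the TPM scale the rise kept its sign but was not called at either time. *Hells* itself had -0.013 and -0.18, not called.

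The chromatin assembly factor genes *Chaf1a* and *Chaf1b*, which place histones behind the fork, had -0.091 and -0.011 at 6 days. *Chaf1a* shares 1285 bases with Ubxn6, and the interval of *Chaf1b* was -0.11 to 0.088, within 20%. *Dtl*, the adaptor that sends CDT1 for degradation in S phase, had -0.13 at 3 days and -0.36 at 6 days (adjusted p = 0.0682), with all DOX libraries of 6 days (62.1 to 72.8 CPM) below those of DMSO (75.7 to 89.6 CPM). *Ung*, the glycosylase that removes uracil from DNA, had 0.15 and 0.025, with -0.048 on log2(TPM + 1) at 3 days and -0.029 at 6 days with the length and GC trend removed.

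Being called at 6 days and not at 3 does not show that the times differed, so the difference between the 2 effects of DOX was tested itself, without a threshold. It was called in 21 of the 46 genes (45.7%), all toward lower values at 6 days, against 9.58% of all tested genes in that direction (7.44% went toward higher values, 17% in all). By role these were 10 of 14 fork genes, 5 of 5 nucleotide genes, 4 of 12 licensing genes, 2 of 6 polymerase genes and 0 of 9 genes of chromatin, control and repair. These shares depended on the trend with transcript length and GC content: with it removed they were 9 of 14 fork genes, 5 of 5 nucleotide genes, 8 of 12 licensing genes, 3 of 6 polymerase genes and 2 of 9 of the last group. In that fit 7.81% of all tested genes were called toward lower values and 5.15% toward higher values. *Gmnn* differed most (difference of log2 fold changes -0.80, SE 0.101, adjusted p = 0.00013), then *Rrm2* (-0.73), *Pcna* (-0.62), *Orc6* (-0.60), *Tyms* (-0.59) and *Dut* (-0.56). Of the 21, 2 (*Cdc6* and *Rrm2*) were called lower at both times, 7 at 6 days alone and 12 at neither. *E2f2*, *Uhrf1* and *Cdca7*, called at both times, were not called for a difference, and the interval of the difference was -0.68 to 0.073 for *E2f2*, -0.29 to -0.0062 for *Uhrf1* and -0.16 to 0.14 for *Cdca7*. Asked for a difference beyond 20%, 4 of the 46 passed (*Gmnn*, *Pcna*, *Rrm2* and *Tyms*), all lower, beside 0.725% of all tested genes lower and 1.38% in all. On log2(TPM + 1), where the median of all genes was 0.104, 10 passed without that threshold, all lower, beside 2.9% lower and 4.98% in all. *Gins1*, *Prim2*, *Cdt1* and *Rrm1* depended most on single libraries, being called in 3, 4, 6 and 12 of the 16 fits that each left 1 out.

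Within DOX, 5 genes were lower at 6 than at 3 days (10.9%, against 2.58% of all tested genes, with 1.37% higher and 3.94% called in all): *Gmnn* (-0.62), *Rrm2* (-0.76), *Cdc6* (-0.51), *Dut* (-0.51) and *Tyms* (-0.50). None of these 5 was called on log2(TPM + 1), where the median of all genes was 0.156 and 52.3% of calls were higher in place of 34.7%. DESeq2 called 3 of the 5, all but *Tyms* and *Dut*. Within DMSO, edgeR called 0 of the 46 between the times, and DESeq2 and limma called 0 as well. By glmTreat, for a change beyond 20%, 0 of the 46 had an unadjusted p under 0.05. Over all 13234 genes edgeR called 0, and 172 had an unadjusted p under 0.05 by the same test. These p-values do not test for smaller changes, for which the fit without the threshold is given below. Still, 37 of the 46 had a fold change above 0 between the times in DMSO, with a median of 0.089 beside 0.0015 over all tested genes, and in 15 the DMSO libraries of 6 days were all above those of 3 days (6.85% of all tested genes, with 5.39% all below). The difference between the 2 effects of DOX therefore holds both the lower values in DOX and the slightly higher values in DMSO at 6 days.

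**Figure D3:**
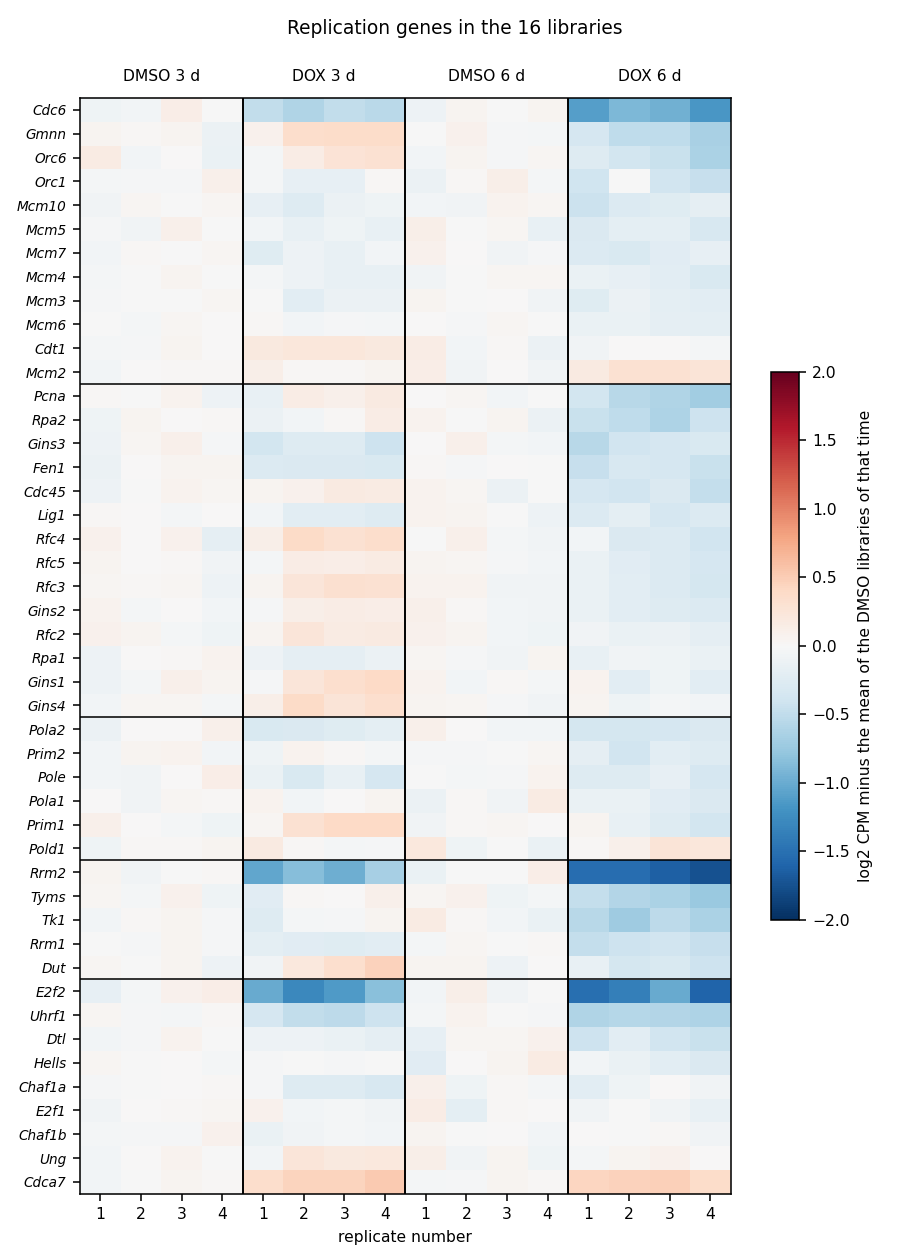
Log2 CPM of each of the 46 genes (rows) in each of the 16 libraries (columns), minus the mean of the 4 DMSO libraries of the same time, from blue (lower) to red (higher), limited to 2 either way. In DOX at 3 days 10 of the 14 fork genes have a fold change above 0 and replicate 1 is lower than the other 3 in most of them, while at 6 days 42 of the 46 genes have a fold change below 0.

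Replicate 1 of DOX at 3 days stood apart from the other 3 libraries of its group. The slope of its log2 CPM on transcript length, taken against the mean of all libraries, was 0.0299 per doubling of length, whereas the other 3 had -0.0792 to -0.0996. Slopes were 0.0205 to 0.0729 in DMSO at 3 days, -0.0479 to 0.0586 in DMSO at 6 days and -0.0198 to 0.0438 in DOX at 6 days. Replicate 1 lay within each of these ranges, and the other 3 lay below all of them. Replicate 1 of DOX at 3 days had the lowest CPM of its group in 24 of the 46 genes and in 10 of the 14 fork genes. By the same count replicate 1 of DMSO at 3 days was lowest in 25 and 7, and replicate 4 of DOX at 6 days in 27 and 7. Without replicate 1 of DOX at 3 days, 5 of the 46 genes were still called at 3 days, the same 5, and 8 in place of 5 were lower between the times in DOX, while the difference between the 2 effects of DOX was called in 22, the same 21 lower and *Mcm2* higher. The calls over all tested genes rose more, from 12.5% to 17.4% at 3 days, from 3.94% to 6.89% between the times in DOX and from 17% to 28.6% for the difference (14.7% lower and 13.9% higher). Without replicate 4 of the same group, or without replicate 4 of DOX at 6 days, 3 genes were called between the times in DOX, *Tyms* and *Dut* being lost.

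The effect of DOX moved with transcript length at 3 days, and the comparisons were repeated with the trend on length and GC content removed. That removal takes out all change that follows length or GC content, so it does not measure the part due to length. Over all tested genes the slope was -0.102 in log2 fold change per doubling of length at 3 days and 0.0138 at 6 days, and over the 46 genes it was -0.179 and 0.02. The 13 of the 46 with transcripts under 2 kb had a median of 0.23 at 3 days, and the 33 longer ones -0.112, beside 0.17 and -0.0591 over all tested genes. At 6 days the same 2 sets had -0.258 and -0.244. With the trend on length and GC content removed from every library, 3 of the 46 were called lower at 3 days, 14 at 6 days (5.67% and 11.6% of all tested genes), 1 was higher at each time, and 27 were called for a difference between the times, all 27 lower and 18 of them among the 21, beside 7.81% of all tested genes lower. *Gins1*, *Gins4* and *Prim2* were the 3 that were lost.

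**Figure D4:**
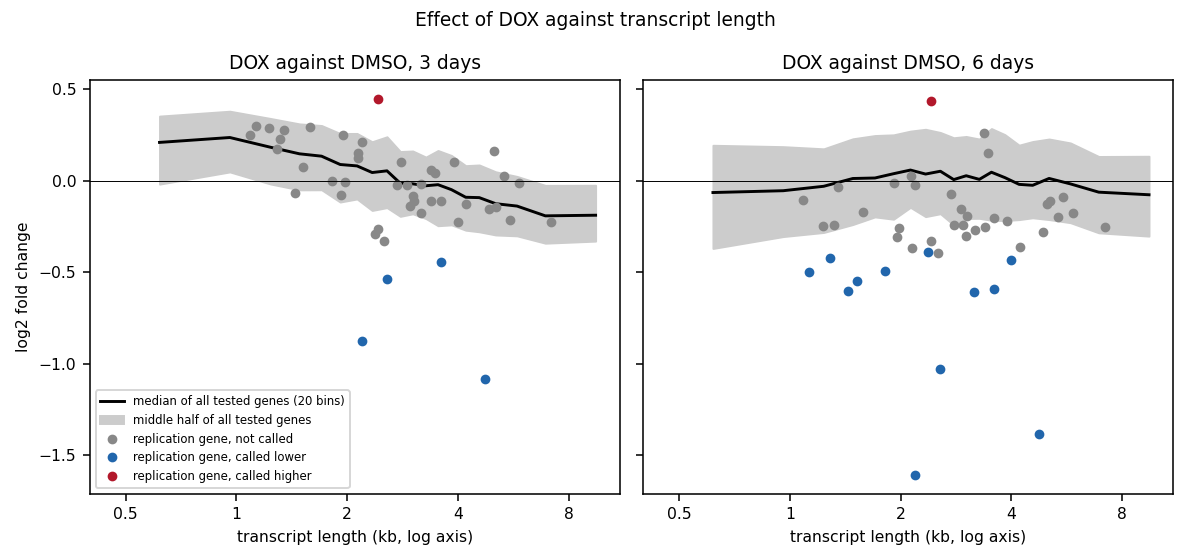
Log2 fold change of DOX against DMSO (y axis) against transcript length in kb (x axis, log scale) at 3 days (left) and 6 days (right), with the median (line) and interquartile range (band) of all tested genes in 20 bins of length and the 46 genes as points. At 3 days the line falls from short to long transcripts, and at 6 days it is nearly level while most of the 46 points lie below it.

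Per transcript length, *Pcna* was the most abundant of the 46 in DMSO, at 313 ± 34.2 TPM (SD, n = 8), followed by *Mcm7* (202 ± 16.6), *Rfc2* (175 ± 8.47) and *Mcm6* (170 ± 16.8), of which the last 2 lay within their spread. The 6 ring genes, whose proteins stand in equal number in the helicase, differed by 1.81 to 2.26 times between the highest and the lowest TPM within a DMSO library and by 1.93 to 2.32 times within a DOX library. Together they had 682 to 859 TPM in DMSO and 611 to 756 in DOX at 3 days, and 824 to 901 and 699.8 to 801 at 6 days. These sums are on the TPM scale, on which the median of all tested genes was lower in DOX at 3 days. In the fit of counts the median log2 fold change of the 6 genes was -0.11 at 3 days and -0.20 at 6 days, and none was called. The ratio of *Pcna* to the mean of the ring genes was 2.27 to 2.47 in DMSO and 1.62 to 2.04 in DOX at 6 days, without overlap, and overlapped at 3 days (2.0 to 2.33 and 2.02 to 2.6).

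Of 91 further genes of the pathway, listed by role, 13 were called at 3 days (8 higher, 5 lower) and 20 at 6 days (7 higher, 13 lower), which is 14.3% and 22% beside 12.5% and 21.6% of all tested genes. The 23 further control and chromatin genes held 5 lower and 1 higher at 6 days, 26.1% beside 21.6% of all tested genes. Among the repressive E2F factors, *E2f8* (-0.62 at 3 days, -1.14 at 6 days) and *E2f7* (-0.89, -1.21) were lower at both times. *Asf1b*, a histone chaperone, was lower at 6 days (-0.74). *E2f8* had 35, 36.1, 35.6 and 33.4 CPM in DMSO and 15.5, 16.4, 16.2 and 15.6 in DOX at 6 days. The 17 further fork genes held 4 lower and 1 higher at 6 days, 29.4% beside 21.6% of all tested genes. The lower ones were led by *Top2a* (-0.42, -0.78), which untangles copied DNA, *Clspn* (-0.59, -0.77), a checkpoint adaptor, and *Dscc1* (-0.50 at 6 days), part of a clamp loader. The higher one was *Ssrp1*, a histone chaperone subunit (0.39).

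Of the 14 further origin genes 4 were higher and 0 lower at 3 days, and 1 was higher and 1 lower at 6 days. These were 28.6% and 14.3% of the list, beside 12.5% and 21.6% of all tested genes. *Recql4*, a helicase that helps origins to fire, had 24.9, 25.2, 25.8 and 25.1 CPM in DMSO and 64, 72.7, 77.9 and 70.4 in DOX at 6 days. It rose by 116% at 3 days (log2 fold change 1.11, SE 0.0702, adjusted p = 3.22e-09) and 182% at 6 days (log2 fold change 1.496, SE 0.0697, adjusted p = 5.1e-12), and *Orc3* (0.58) and *Mcm8* (0.50) rose at 3 days. At 6 days *Donson*, a fork protein, was lower (-0.45). Of the 31 further nucleotide enzymes 4 were higher and 3 lower at 6 days, 22.6% beside 21.6% of all tested genes, which is near the background. *Cad*, the first enzyme of pyrimidine synthesis, rose (0.70), as did *Dctd*, which makes deoxyuridylate from deoxycytidylate (0.79 and 0.77), while *Dck*, the kinase that salvages deoxycytidine, fell (-0.84). None of the 6 further polymerase subunits was called.

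**Figure D5:**
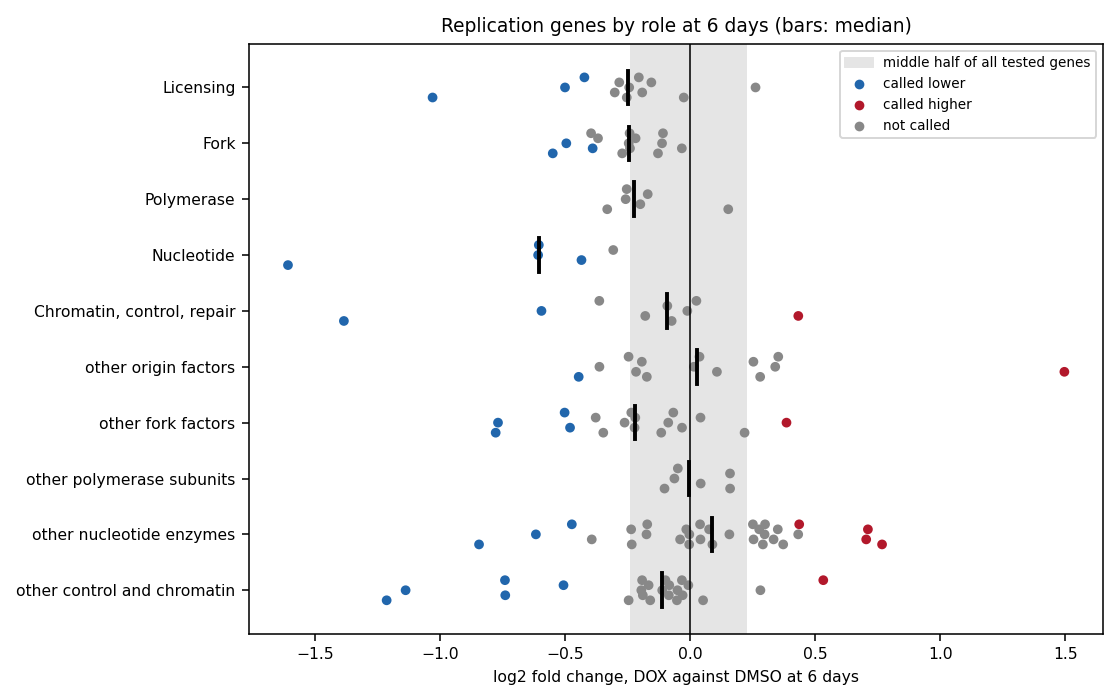
Log2 fold change of DOX against DMSO at 6 days (x axis) for each gene (points) of the 5 roles of the 46 genes and of 5 lists of further genes of the pathway (rows), with the list median (bars) and the interquartile range (band) and median (line) of all tested genes. The nucleotide group has the lowest median, -0.605, and the further nucleotide enzymes have theirs, 0.089, above 0.

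E2F letters were common in the promoters of the 46 genes whether or not the genes were called. RefSeq promoters were matched for 38 of the 46, 44 windows in all, of which 30 cover the GENCODE start, and 17 of the 38 genes held at least 1 match, beside 2.26% of the 32851 promoters searched. At 6 days they were present in 3 of 11 genes called lower (*Cdc6*, *E2f2* and *Uhrf1*), in *Cdca7*, and in 13 of 26 not called, among them *Mcm3*, *Mcm5*, *Mcm6* and *Mcm7* with 2 or 3 matches each, some of them overlapping. *Rrm2*, *Rrm1*, *Tyms*, *Tk1* and *Pcna* held none in these windows. The letters CCAAT (either strand) stood in 22 of the 38 genes, beside 37.4% of promoters, and TTTGAA, the core of the cell cycle homology region, in 5, beside 17.9%. A match describes the letters alone, and an absent match says only that these letters are not in this window.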

How the data were processed

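Poly(A) RNA was sequenced in paired reads from 4 groups of 4 libraries. The authors aligned reads to GRCm38.p6 with STAR 2.6.0c and quantified them with Salmon 0.14.10 (versions from the submitters' processing notes and the study's methods). The authors deposited estimated counts per gene, not normalized, and TPM from the same quantification. The study's methods name a directional (strand-keeping) library kit, but the strand setting of the counting is not given in the sources used here.

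Estimated counts were rounded. The filter on low values kept 13234 of 54393 genes (CPM of 1 or more, 4 or more libraries), with TMM scaling. A robust quasi-likelihood model with a mean per group (edgeR 4.0.16, R 4.3.3) was fitted to all 16 libraries, which share 1 estimate of the spread. Groups were compared by glmTreat (threshold 1.2) and the difference between the effects of DOX by glmQLFTest, two-sided, with Benjamini-Hochberg adjustment over all tested genes (limit 0.05). SEs are the absolute log2 fold change divided by the square root of F. Gene positions are those of GENCODE on GRCm38, and near copies are transcripts at least 95% identical over 300 bases. Other settings were RLE scaling, DESeq2 1.42.0, limma 3.58.1 on log2(TPM + 1) and log2(TPM + 0.1), no threshold, other filters, no robust estimation, the 8 libraries of a comparison, a replicate block, a length and GC offset (splines with 5 degrees of freedom) and leaving out each library. Median-centred TPM was added after seeing the data. The calculations were tested on simulated counts.

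Members and lists were chosen with earlier results of these data known. By rule, genes called at 3 or 6 days were named with values in every library (up to 6 per role), other members by fold change, and up to 3 called genes per further list by smallest adjusted p. Other genes named were chosen after their values were seen. Replicates correlated at 0.9811 to 0.9924 in log2 CPM (24 pairs).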

Additional observations from a re-analysis of the deposited data

Results flagged for a closer look

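The effect of DOX differed between 6 and 3 days in 21 of the 46 genes by edgeR's test of the difference itself, in each toward a lower value at 6 days. That is 45.7%, beside 9.58% of all tested genes lower and 17% in all. As the log2 fold change at 6 days minus that at 3 days, the licensing genes had -0.49 (*Cdc6*), -0.24 (*Cdt1*), -0.80 (*Gmnn*) and -0.60 (*Orc6*). The fork genes had -0.49 (*Cdc45*), -0.36 (*Gins1*), -0.32 (*Gins2*), -0.31 (*Gins4*), -0.62 (*Pcna*), -0.29 (*Rfc2*), -0.47 (*Rfc3*), -0.53 (*Rfc4*), -0.34 (*Rfc5*) and -0.49 (*Rpa2*). The primase genes had -0.46 (*Prim1*) and -0.25 (*Prim2*), and the nucleotide genes -0.21 (*Rrm1*), -0.73 (*Rrm2*), -0.59 (*Tyms*), -0.54 (*Tk1*) and -0.56 (*Dut*). With the length and GC trend removed 27 of the 46 were called, all lower, beside 7.81% of all tested genes lower. *Gins1*, *Gins4* and *Prim2* were no longer among them. On log2(TPM + 1) fewer than 21 passed.

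Single libraries lay far from the other 3 of their group in 7 of 184 sets of 1 gene in 1 group (3.8%, where chance gives about 5%). DMSO at 3 days held *Mcm2* in replicate 1 (278 CPM, others 293 to 294), *Rrm1* in replicate 3 (181 CPM, others 171 to 173) and *Orc1* in replicate 4 (10.9 CPM, others 9.86 to 9.96). In DOX at 3 days, replicate 1 was low for *Gmnn* (63.6 CPM, others 76.2 to 77.2) and for *Rfc5* (149.7 CPM, others 168 to 171). In DOX at 6 days, *Orc1* was high in replicate 2 (10.9 CPM, others 8.0 to 8.39) and *Pola2* in replicate 4 (66.6 CPM, others 63.8 to 63.9).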

How the results depend on the processing

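The counts of the 46 genes called kept within 1.5 times their value under most settings: 51 of 64 other fits did and 13 did not. Between the times in DMSO, where the main fit called 0, a fit that also called 0 was taken as kept, which raises the 51. Without the 20% threshold 23 genes passed at 3 days, 35 at 6 days, 1 between the times in DMSO (higher at 6 days) and 23 in DOX, beside 45.2%, 50.6%, 0.468% and 30.2% of all tested genes, so that the 3-day count was near the background. With that threshold 4 passed for the difference between the times, beside 1.38%. DESeq2 called 3 between the times in DOX. The limma test on log2(TPM + 1) and log2(TPM + 0.1) called 0 and 0 there, and 10 and 10 for the difference. Centred on the median, it called 2 at 3 days, 7 at 6 days and 2 between the times in DOX, with 15.5% of calls over all genes higher there and 28.5% (in place of 43.7%) for the difference. The cause of these shifts was not tested. Leaving out each library gave 5 genes at 3 days, 12 to 14 at 6 days, 0 in DMSO, 3 to 8 in DOX and 17 to 24 for the difference. Over all tested genes it gave 1366 to 2297, 2537 to 3057, 0, 327 to 912 and 1370 to 3788 calls. For the difference (2252 calls with all libraries) the 3788 were without replicate 1 of DOX at 3 days, and 1370, 1493 and 1470 without replicate 4 of DMSO at 3 days, replicate 2 of DOX at 3 days and replicate 2 of DMSO at 6 days. Between the times in DOX (522 calls) the 912 were likewise without replicate 1 of DOX at 3 days, and 327 to 341 were called without replicate 2, 3 or 4 of that group or replicate 2 or 3 of DOX at 6 days.

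A change of sign occurred only in genes that were not called at that time. At 3 days, log2(TPM + 1) and log2(TPM + 0.1) gave -0.1342 and -0.1354 for *Mcm2*, -0.000821 and -0.0008434 for *Orc6*, -0.08047 and -0.08204 for *Cdc45*, -0.04249 and -0.04363 for *Gins1*, -0.1182 and -0.1196 for *Gins2*, -0.1234 and -0.1238 for *Pcna*, -0.02185 and -0.02197 for *Rfc2*, -0.07413 and -0.07478 for *Rfc5*, -0.1565 and -0.1616 for *Rpa2*, -0.1515 and -0.1636 for *Pola1*, -0.1329 and -0.1362 for *Pold1*, and -0.04768 and -0.04924 for *Ung*, which at 6 days had -0.09079 and -0.09361. Centred TPM values gave 0.08642 for *Orc1*, 0.02476 for *Prim2*, 0.0387 for *Tyms*, 0.06859 for *Hells* and 0.01044 for *E2f1* at 3 days, and -0.03482 for *Ung* at 6 days. The length and GC offset, without and with the replicate block, gave -0.07469 and -0.07461 for *Pcna*, -0.07699 and -0.07672 for *Rpa2*, 0.1143 and 0.1144 for *Hells* and 0.0408 and 0.03816 for *E2f1* at 3 days, and 0.0216 and 0.02161 for *Gins4* and -0.02941 and -0.03027 for *Ung* at 6 days, and with the block 0.0003474 for *Tyms* at 3 days. Filters gave *Rpa2* -0.01248 (1 CPM in all 16 libraries) and -0.004068 (1 count in any library) at 3 days, and the latter 0.01137 for *Cdt1*, 0.003368 for *Gins4* and 0.02562 for *Chaf1b* at 6 days. Leaving out each library gave values on both sides of 0 for *Rpa2* (-0.05169 to 0.03908), *Pola1* (-0.008066 to 0.04813), *Prim2* (-0.03499 to 0.02232), *Pold1* (-0.01229 to 0.06335), *Tyms* (-0.06178 to 0.04375) and *Hells* (-0.02743 to 0.0001415) at 3 days, and for *Cdt1* (-0.06375 to 0.02707), *Chaf1b* (-0.02847 to 0.009256) and *Ung* (-0.005893 to 0.06524) at 6 days.

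Replicate numbers did not pair the libraries: the deviations of same-numbered libraries had mean correlations of -0.0955 (3 days) and -0.121 (6 days), and 0 of 4 correlated best with their own number. With the number as a block 5, 12, 0, 4 and 18 genes were called at 3 days, at 6 days, between the times in DMSO and in DOX, and for the difference, and 4, 15, 0, 6 and 25 with the block and the offset together. The shares of all tested genes called in these fits are not given here. The counts thus show only how the calls of the 46 genes moved, not how they compare with the background. *Orc1* and *E2f2*, both at low levels, had the widest intervals of the 46 at 6 days, and in DOX at that time 1 library of *Orc1* had 10.9 CPM and the others 8.0 to 8.39. The parts of depth and of spread between libraries in these intervals were not tested.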

Other observations

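Some further genes of the pathway also differed between the 2 effects of DOX. By edgeR's test of the difference, 19 of the 91 were lower at 6 days relative to 3 days and 3 were higher. The lower ones were 20.9%, beside 9.58% of all tested genes, and all those called were 24.2%, beside 17%. The small RPA subunit gene *Rpa3* had a difference of -0.57 (SE 0.148), *Tipin*, of the fork protection complex, -0.53, and *Pole4* and *Pole2*, accessory subunits of polymerase epsilon, -0.41 and -0.32, while none of these 4 was called at 3 or 6 days. All 4 have transcripts under 2 kb, and over all tested genes of that length the median difference was -0.174. The 3 higher were *Recql4* (0.38), *Cad* (0.44) and *Slc29a1*, a nucleoside transporter (0.34).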
